A study of Mus musculus with 6 samples.

Results

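Vnn1, Fam174b, Slco3a1, Slc10a5 and Pof1b are 5 of the 19042 genes tested in mouse lungs shortly before birth. They were chosen by name from genes that were lower in all 3 Mll3 KO libraries than in all 3 wild type libraries and that fitted into no other pathway group. All 5 had enough reads to be tested. In the same data 8.45% of all tested genes showed that complete separation in the same direction. The difference between genotypes is therefore what selected these genes, and their own fold changes are given below as a description, without a test.

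Vnn1 encodes vanin 1, a pantetheinase anchored to the cell surface that splits pantetheine into pantothenate, the precursor of coenzyme A, and the aminothiol cysteamine. In mouse liver it is known as a target of the fatty acid receptor PPAR alpha. Slco3a1 encodes an organic anion transporter whose substrates include prostaglandins, and Slc10a5 an orphan member of the family that holds the sodium-dependent bile acid transporters. Fam174b encodes a small predicted membrane protein. Pof1b encodes an actin-binding protein that has been placed at epithelial cell junctions in human cells. The genes share no pathway, so each was set beside genes of its own pathway or family, beside its chromosomal neighbours and beside markers of the cells a lung sample can hold.

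RNA was sequenced from whole lung lobes at E18.5 (embryonic day), dissected before the lung was filled with air, in 3 samples of the genotype Mll3FDC/FDC (Mll3 KO) and 3 of wild type. Mll3, also called Kmt2c, encodes a histone methyltransferase that acts at enhancers. The labels give no strain, do not say what the FDC allele removes and name no Cre or promoter. Separate animals or litters are not stated either, so the p-values below reflect only how far these 6 samples vary.

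The libraries held 20158689 to 23305306 reads in genes. Sftpc, the surfactant gene that marks alveolar type 2 cells, reached 12163 ± 1270 CPM (reads of a gene scaled to a common library size) in Mll3 KO and 12347 ± 1003 CPM in wild type lungs (SD, n = 3 each). Kmt2c itself stood at 158 ± 14.2 CPM in Mll3 KO and 168 ± 9.58 CPM in wild type lungs (SD, n = 3 each; edgeR adjusted p = 0.74), and a count over the whole gene does not check a genotype in which part of the transcript may remain. Mll3 KO 3 was the only library with many Xist reads, 59951 against 6 to 27 in the others, and had 4 reads of Y-linked genes against 7414 to 9300. By these reads Mll3 KO 3 was female and the other libraries male. Sex was therefore not balanced between the genotypes, and no fit had a term for it. Wild type 1 stood apart in markers of basal and squamous epithelium, with a summed 815.5 CPM over 8 genes, against 35.6 to 77.4 CPM in the Mll3 KO libraries and 29.1 and 57.5 CPM in wild type 2 and 3.

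Read per base of exon, the levels of the 5 genes covered a wide range. Fam174b was the highest with 21.5 ± 1.08 FPKM (CPM per kilobase of exon) in Mll3 KO and 31.4 ± 0.985 FPKM in wild type lungs (SD, n = 3 each). Vnn1 came next with 14.7 ± 1.99 FPKM in Mll3 KO and 26.6 ± 1.80 FPKM in wild type lungs. Slco3a1 had 5.51 ± 0.583 FPKM in Mll3 KO and 8.68 ± 0.262 FPKM in wild type lungs. Pof1b followed with 2.60 ± 0.348 FPKM in Mll3 KO and 5.80 ± 1.38 FPKM in wild type lungs. Slc10a5 was far lower, with 0.135 ± 0.0153 FPKM in Mll3 KO and 0.436 ± 0.0635 FPKM in wild type lungs (SD, n = 3 each). The order of the 5 genes was the same in all 6 libraries, and within a genotype the libraries of neighbours in this order did not overlap. In wild type lungs 91.0% of tested protein-coding genes had a lower FPKM than Fam174b, 88.7% a lower one than Vnn1, and 8.03% a lower one than Slc10a5.

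**Figure D1:**
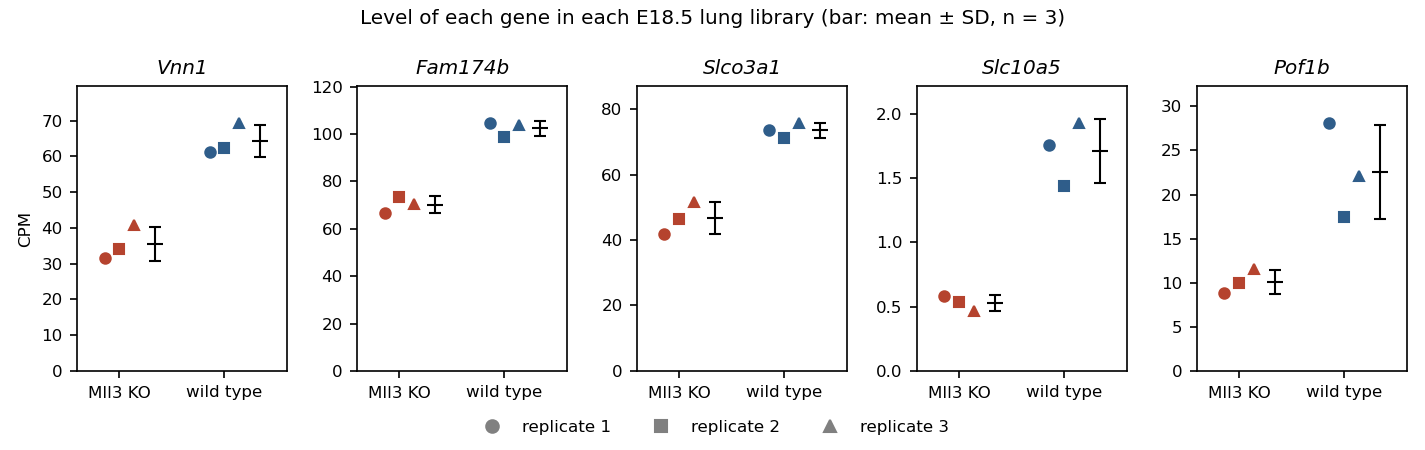
CPM of each of the 5 genes in every library (vertical axes, each from 0), Mll3 KO left and wild type right, with the mean and SD of 3 libraries beside the points. In each panel every Mll3 KO library lies below every wild type library, which is how the genes were selected. The smallest gap is that of Fam174b, whose lowest wild type library is 1.34 times its highest Mll3 KO library.

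Vnn1 (ENSMUSG00000037440, mm10 chr10:23894688-23905343, plus strand) had 753, 696 and 875 reads in Mll3 KO 1 to 3, against 1355, 1432 and 1473 reads in wild type 1 to 3. Scaled, these were 31.5, 34.05 and 40.8 CPM in Mll3 KO lungs, against 61.2, 62.4 and 69.3 CPM in wild type lungs. Mll3 KO 3 was the highest of the knockouts, and the lowest wild type library still held 1.50 times its level. The mean was 35.5 ± 4.81 CPM in Mll3 KO and 64.3 ± 4.35 CPM in wild type lungs (SD, n = 3 each), which puts the knockout at 55.2% of wild type and the fitted log2 fold change at −0.86 ± 0.10 (SE).

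Vnn1 was set beside a list of pantetheine and coenzyme A genes that also held genes of taurine synthesis. The 1 gene that passed the test belongs to taurine synthesis. Of 16 listed genes tested, 1 fell, 0 rose and 15 did not pass (edgeR quasi-likelihood test, Benjamini-Hochberg adjusted p under 0.05 over all genes). Of all genes tested 0.305% fell and 0.063% rose at that threshold. The median log2 fold change of the list was 0.06, against 0.01 for all genes. Its 10 positive values included all of those for the later synthesis enzymes Ppcs (0.11), Ppcdc (0.10) and Coasy (0.07), while the pantothenate kinase genes Pank1 to Pank4 ran between −0.05 and 0.10.

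The gene that fell was Cdo1, cysteine dioxygenase, which feeds cysteine into taurine synthesis. It had 47.5, 45.7 and 45.5 CPM in Mll3 KO lungs, against 68.7, 59.4 and 62.8 CPM in wild type lungs. The groups did not overlap. Its log2 fold change was −0.46 ± 0.08 (SE) with an edgeR adjusted p of 0.042. Cdo1 also passed in limma (limma adjusted p = 0.035) and in DESeq2 (DESeq2 adjusted p = 0.00024), where 1.76% of genes fell. The call did not survive scaling by library size alone (edgeR adjusted p = 0.058). Nor did it survive leaving out any of the 6 libraries, where edgeR's adjusted p ran from 0.058 to 0.18 and the log2 fold change from −0.51 to −0.40. Csad, the decarboxylase of the next steps towards taurine, stood at 0.20 (edgeR adjusted p = 0.34).

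Vnn3, the other mouse vanin gene, lies 24.8 kb from Vnn1 on the same strand and was much more variable. It had 8.54, 16.5 and 13.3 CPM in Mll3 KO lungs, against 15.5, 13.1 and 22.2 CPM in wild type lungs. The groups overlapped, and its log2 fold change of −0.41 ± 0.29 (SE) did not pass (edgeR adjusted p = 0.68). The sample titles begin with a number that takes 2 values. A fit with this title number as a term gave −0.65 ± 0.12, which passed (edgeR adjusted p = 0.021), where 2.54% of all genes fell. One number is carried by Mll3 KO 1, wild type 1 and wild type 2 and the other by Mll3 KO 2, Mll3 KO 3 and wild type 3, with no word on its meaning. Within the title numbers the log2 ratio of Vnn1 itself was −0.97 and −0.89.

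Genes of the PPAR alpha response, the receptors included, were listed because of the known link of Vnn1 to that receptor. Of 13 tested, 0 fell, 1 rose and 12 did not pass, with a median log2 fold change of 0.04. Of all genes tested 0.305% fell and 0.063% rose. Ppara, the receptor gene, stood at 0.04, and the fatty acid oxidation enzyme genes Hadha and Acadm stood at −0.03 and 0.03. Angptl4, a secreted inhibitor of lipoprotein lipase, was the gene that rose, with 14.7, 19.4 and 15.4 CPM in Mll3 KO lungs, against 7.77, 7.275 and 9.83 CPM in wild type lungs. Every knockout library lay above every wild type library, and the log2 fold change was 0.99 ± 0.15 (SE) with an edgeR adjusted p of 0.037. Angptl4 also passed in limma (limma adjusted p = 0.028) and in DESeq2 (DESeq2 adjusted p = 8.1e-06), where 60 genes rose. Leaving out Mll3 KO 1 kept the call (edgeR adjusted p = 0.040), and leaving out any other library ended it (0.081 to 0.15). Acot1, an acyl-CoA thioesterase gene, and Cpt1a, which brings fatty acids into mitochondria, had 0.29 and 0.18 (edgeR adjusted p = 0.26 and 0.42).

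**Figure D2:**
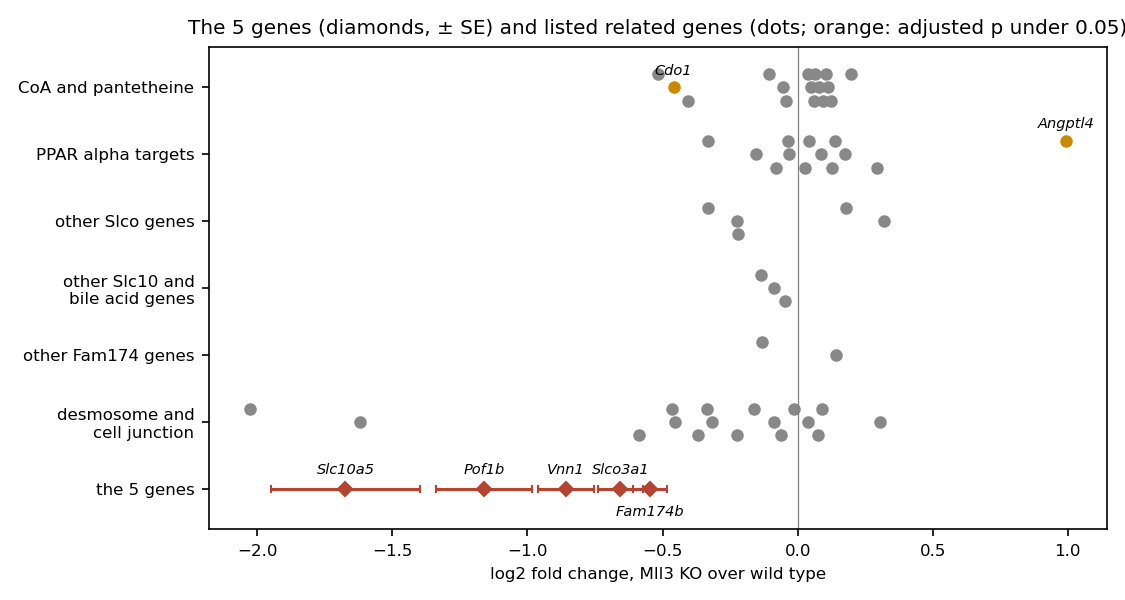
Log2 fold change (Mll3 KO over wild type, horizontal axis) of the tested genes in each pathway or family list (dots) and of the 5 selected genes (diamonds with SE). Of the listed genes Cdo1 (−0.46) and Angptl4 (0.99), in orange, passed the test, and the other dots of the first 5 lists lie between −0.52 (Gadl1) and 0.32 (Slco4c1). The 2 desmosome genes far to the left, Pkp1 and Dsc2, did not pass and are above 0 without wild type 1.

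Slco3a1 (ENSMUSG00000025790, mm10 chr7:74275419-74554780, minus strand) had 998, 952 and 1107 reads in Mll3 KO lungs, against 1630, 1636 and 1610 reads in wild type lungs. In CPM these were 41.8, 46.6 and 51.7 in Mll3 KO lungs, against 73.6, 71.3 and 75.7 in wild type lungs. The wild type libraries lay close together and the knockouts were more spread, with a coefficient of variation of 10.6% in Mll3 KO and 3.01% in wild type lungs. The means were 46.7 ± 4.94 CPM in Mll3 KO and 73.5 ± 2.22 CPM in wild type lungs (SD, n = 3 each), a log2 fold change of −0.66 ± 0.08 (SE) and 63.4% of wild type.

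Of the other 14 Slco genes, 5 had enough reads to be tested and 0 passed in edgeR or in DESeq2. In edgeR 2 had an unadjusted p under 0.05, as had 10.7% of all genes tested. Their median log2 fold change was −0.22. Slco4c1, an abundant member, had 159 ± 22.9 CPM in Mll3 KO and 127 ± 3.60 CPM in wild type lungs (SD, n = 3 each), a log2 fold change of 0.32 (edgeR adjusted p = 0.23). With no filter on low counts its edgeR adjusted p was 0.021, in a fit in which 0.298% of all genes rose. Slco2b1 had 11.5 CPM in Mll3 KO and 14.5 CPM in wild type lungs, a log2 fold change of −0.33 (edgeR adjusted p = 0.39). Slco2a1, the prostaglandin transporter of endothelium, stood at −0.22. The 3 genes Slco1a1, Slco1a6 and Slco6c1 had no reads in any library.

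Slc10a5 (ENSMUSG00000058921, mm10 chr3:10331734-10335656, minus strand), a gene annotated as a single exon, rests on few reads. It overlaps the predicted gene Gm38303 on the same strand over 268 bases, and that gene had 0 reads. It had 14, 11 and 10 reads in Mll3 KO lungs, against 39, 33 and 41 reads in wild type lungs. In CPM these were 0.586, 0.538 and 0.467 in Mll3 KO lungs, against 1.76, 1.44 and 1.93 in wild type lungs. Every wild type library held at least 2.45 times the CPM of every knockout library. Summed over the 3 libraries, the 35 reads of Mll3 KO give 0.371 to 0.740 CPM and the 113 reads of wild type give 1.40 to 2.05 CPM (exact Poisson intervals at 95%, which cover counting error only). The fitted log2 fold change was −1.67 ± 0.27 (SE), and the mean in knockout lungs was 31.3% of wild type, so the least abundant of the 5 genes had the largest fold change.

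Slc10a5 is known above all from liver and kidney, so markers of both tissues were summed in the lungs. Whether reads of Slc10a5 came from either tissue was not tested. The summed level of 8 liver genes was 7.32, 69.9 and 26.4 CPM in Mll3 KO lungs, against 9.94, 12.8 and 15.6 CPM in wild type lungs. These sums overlapped between the genotypes, and both the highest and the lowest were in knockout libraries. All of them lay above the level of Slc10a5 itself, which was 0.467 to 1.93 CPM over the libraries. The sum of 6 kidney genes was 0.147 to 0.335 CPM in Mll3 KO and 0.181 to 0.218 CPM in wild type lungs, and of these genes Nphs1 and Kap had no reads in any library. Of 11 other genes of the Slc10 family and of bile acid transport and sensing, 3 were tested and 0 passed in edgeR or in DESeq2, with 0 at an unadjusted p under 0.05 in edgeR. Those were Slc10a3 (−0.09), Slc10a6 (−0.14) and Slc10a7 (−0.05). The bile acid transporters of liver and gut, Slc10a1 and Slc10a2, averaged at most 0.080 CPM in either genotype.

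Fam174b (ENSMUSG00000078670, mm10 chr7:73740302-73776919, plus strand) had 1588, 1503 and 1506 reads in Mll3 KO lungs, against 2315, 2265 and 2209 reads in wild type lungs. In CPM these were 66.5, 73.5 and 70.3 in Mll3 KO lungs, against 104.6, 98.7 and 103.9 in wild type lungs. Both groups were tight, and none of the libraries stood apart. The means of 70.1 ± 3.53 CPM in Mll3 KO and 102.4 ± 3.21 CPM in wild type lungs (SD, n = 3 each) gave a log2 fold change of −0.55 ± 0.06 (SE), or 68.5% of wild type, the smallest fold change and the smallest error of the 5. The family members Fam174a and Fam174c stood at −0.13 and 0.14 (edgeR adjusted p = 0.67 and 0.80, with neither under 0.05 before adjustment or passing in DESeq2).

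Pof1b (ENSMUSG00000034607, mm10 chrX:112638431-112698651, minus strand) had 211, 203 and 247 reads in Mll3 KO lungs, against 622, 400 and 470 reads in wild type lungs. In CPM these were 8.83, 9.93 and 11.5 in Mll3 KO lungs, against 28.1, 17.4 and 22.1 in wild type lungs. The wild type libraries were more spread than the knockouts, with wild type 1 the highest. The coefficient of variation was 13.4% in Mll3 KO and 23.7% in wild type lungs. The means of 10.1 ± 1.35 CPM in Mll3 KO and 22.5 ± 5.35 CPM in wild type lungs (SD, n = 3 each) gave a log2 fold change of −1.16 ± 0.18 (SE) and 44.8% of wild type. Wild type 1 is also the library with the basal and squamous markers, and without it the log2 fold change of Pof1b was −0.97. Sprr3, one of those markers, was at 0 in every library but wild type 1. Pof1b is X-linked, and Mll3 KO 3, the library with Xist reads, was the highest of the 3 knockouts. The same library was the highest knockout for Vnn1 and Slco3a1, which are not X-linked, but not for Fam174b or Slc10a5. Without Mll3 KO 3 the log2 fold change was −1.27.

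Genes of desmosomes and epithelial junctions were lower in the knockout by their point estimates more often than not, but 0 of 17 passed in edgeR. Their median log2 fold change was −0.22, against 0.01 for all genes. Of the 17, 13 were below 0, as were 47.4% of all genes tested, and 7 had an unadjusted p under 0.05, as had 10.7% of all genes. Wild type 1, the library with the basal and squamous markers, was the highest library for genes that included Pkp1, Dsc2, Dsp, Perp and Evpl. Without wild type 1 the median was −0.08, with 11 of 17 below 0, 3 at an unadjusted p under 0.05 and 0 passing in edgeR. In DESeq2 2 of them passed, Evpl at −0.59 and Myh14 at −0.47 (DESeq2 adjusted p = 0.013 and 0.015), where 1.76% of the 16442 genes with a DESeq2 adjusted p fell. Pkp2, a plakophilin of desmosomes, had 28.8 ± 2.11 CPM in Mll3 KO and 35.9 ± 2.85 CPM in wild type lungs (SD, n = 3 each), a log2 fold change of −0.32 (edgeR adjusted p = 0.22). With the title number as a term Pkp2 and Myh14 passed, at −0.38 and −0.60 (edgeR adjusted p = 0.026 and 0.012), in a fit in which 2.54% of all genes fell. Dsg2, a desmosomal cadherin, went the other way at 0.30 (edgeR adjusted p = 0.27), and Cdh1, the cadherin of epithelial cells, was level at −0.02. Pkp1 and Dsc2 had the most negative values, −2.03 and −1.62, with edgeR adjusted p-values of 0.81 and 0.70. Both rested on wild type 1. Dsc2 had 2.68, 3.28 and 1.96 CPM in Mll3 KO lungs, against 20.1, 1.57 and 2.68 CPM in wild type lungs. Pkp1 had 0.167, 0.636 and 5.46 CPM in Mll3 KO lungs, against 24.7, 0.349 and 0.282 CPM in wild type lungs. Without wild type 1 their log2 fold changes were 2.69 for Pkp1 and 0.31 for Dsc2.

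In a bulk sample fewer cells of a type and less RNA per cell cannot be told apart, and the reads do not show which cells the 5 transcripts came from. Alveolar type 1 cells, the flat cells of gas exchange, had lower markers in the knockout. Summed over 10 genes they reached 3836, 3917 and 4473 CPM in Mll3 KO lungs, against 5730, 5444 and 5898 CPM in wild type lungs. Of these 10 genes 9 were lower in all 3 knockout libraries and 3 fell by the test, Aqp5 (−1.41), Pdpn (−0.74) and Clic5 (−0.58). Of all genes tested 8.45% were lower without overlap, 47.4% were below 0 and 0.305% fell. The sums of mesothelial, capillary, macrophage and pan-epithelial markers were also lower in every knockout library than in every wild type library. Single genes of the mesothelial and capillary lists were mixed. Of 7 macrophage genes 6 were below 0, 2 were lower without overlap and 0 passed, with a median log2 fold change of −0.17. Of 5 mesothelial genes 3 were below 0 and 1 was lower without overlap, and their median was −0.02 on the log2 scale. Of 7 capillary genes 4 were below 0, 3 were lower without overlap and 1, Ednrb, was higher in all 3 knockout libraries. The capillary sum was 791 to 821 CPM in Mll3 KO and 876 to 897 CPM in wild type lungs, and the macrophage sum 139 to 153 CPM in Mll3 KO and 160 to 172 CPM in wild type lungs. Car4, a carbonic anhydrase gene of alveolar capillaries, fell (−1.05, edgeR adjusted p = 0.035), and the other 6 capillary markers did not pass. Alveolar type 2, pan-endothelial, fibroblast, ciliated and club sums overlapped between the genotypes. The log2 ratio of the mean sums was −0.15 for pan-endothelial and −0.15 for pan-epithelial markers. The 8 ciliated genes were all below 0, with a median log2 fold change of −0.55. Of 7 club genes 6 were below 0, with a median of −0.57. The alveolar type 1 median was −0.45. In the ciliated and club lists 2 genes each were lower without overlap, and 0 passed. The part of any of these cell types in the results was not tested.

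**Figure D3:**
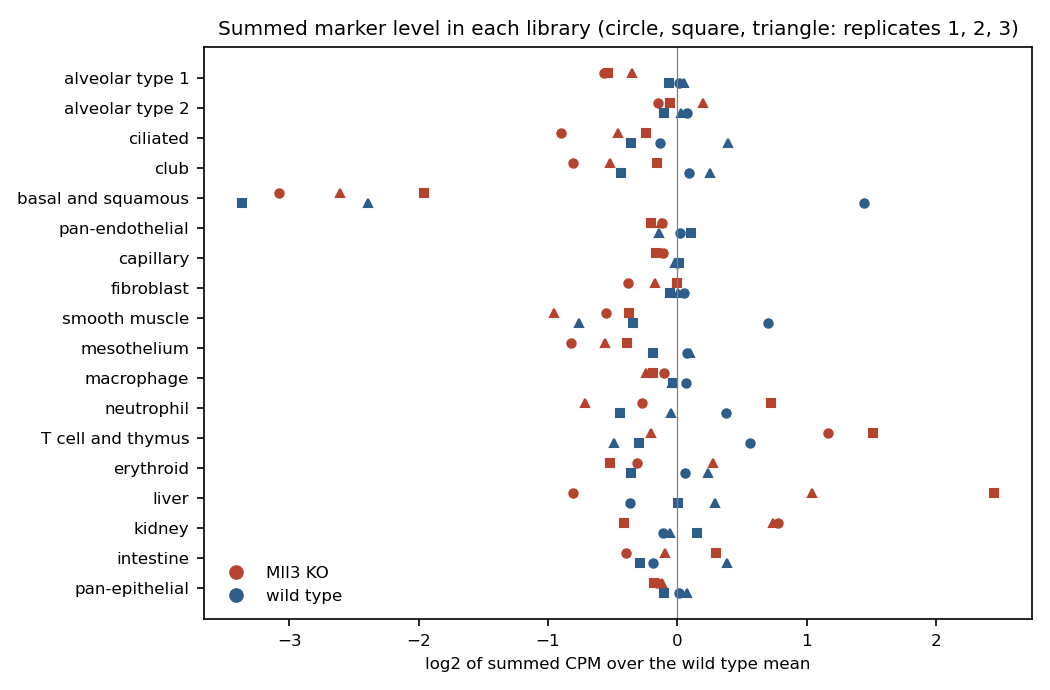
Summed CPM of each cell type or tissue list in every library, as log2 over the wild type mean (horizontal axis), Mll3 KO above wild type in each row. The alveolar type 1 sums of the Mll3 KO libraries (3836 to 4473 CPM) lie left of those of wild type (5444 to 5898 CPM), and wild type 1 lies far to the right for basal and squamous markers (815.5 CPM).

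Each gene was then expressed per 1000 CPM of alveolar type 1 markers, a ratio that scaling between libraries does not touch. Fam174b had 17.3, 18.8 and 15.7 CPM per 1000 CPM of these markers in Mll3 KO lungs, against 18.2, 18.1 and 17.6 in wild type lungs. On that measure the groups overlapped, with the knockout mean at 96.0% of wild type. Its log2 ratio was −0.06, and 0.0043 without Mll3 KO 3. Slco3a1 was at 88.5% of wild type, Vnn1 at 76.8%, Pof1b at 62.6% and Slc10a5 at 43.9%, and for these 4 genes the groups still did not overlap. Per 1000 CPM of pan-epithelial markers the 5 genes were at 34.6% to 75.8% of wild type without overlap. These ratios describe the libraries and do not assign a gene to a cell type.

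**Figure D4:**
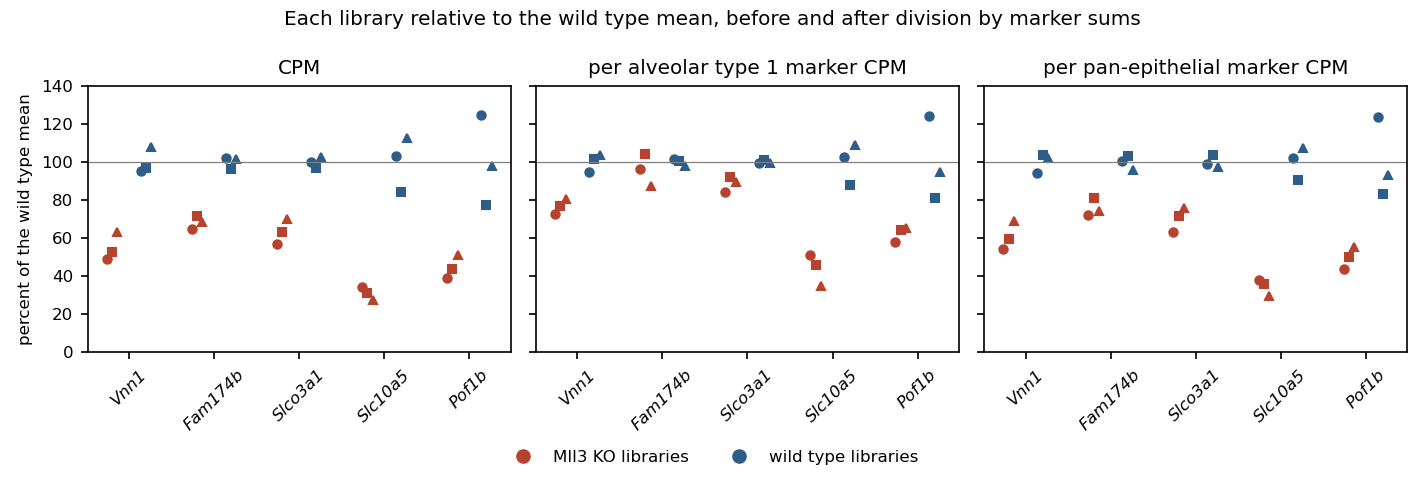
Each library as a percentage of the wild type mean of that gene (vertical axis), from CPM on the left, after division by the summed alveolar type 1 markers in the middle and by pan-epithelial markers on the right. Fam174b overlaps between Mll3 KO and wild type in the middle panel, where its Mll3 KO mean is 96.0% of wild type, and Slc10a5 stays lowest at 43.9%.

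The profiles over the 6 libraries also differed among the 5 genes. Likeness was measured as the root mean square difference between log2 CPM profiles centred on their means, over 6 libraries and 13616 genes, so that the shared difference between genotypes enters every comparison. Fam174b and Slco3a1 were the closest pair, 0.09 apart, with log2 fold changes of −0.55 and −0.66. Fam174b and Slc10a5 were the least alike, 0.51 apart, with −0.55 and −1.67. Genes with like fold changes are near each other on this measure by construction. Nearness therefore restates in part the contrast that selected the 5 genes. Of genes outside the set, Slco3a1 was nearest to Clic5 (0.04), itself one of the alveolar type 1 markers, then to Calcrl (0.05), the receptor gene for adrenomedullin, and to Nceh1 (0.07). Fam174b was nearest to Fndc7 (0.04), Dusp14 (0.05) and Emb (0.05). Vnn1 was nearest to Fxyd4 (0.06), Ly6c1 (0.07) and Cysltr1 (0.08), a leukotriene receptor gene. Pof1b was nearest to Anxa1 (0.11), Il1rn (0.12) and Slc5a1 (0.13), and all of these except Slc5a1 were highest in wild type 1, like Pof1b itself. Slc10a5 had no close match, the nearest being Alox5 (0.22), Ifi203 (0.23) and Ugt8a (0.28).

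Position on the chromosome was not used to choose the genes. Fam174b and Slco3a1 lie 498.5 kb apart on chromosome 7 with 1 tested gene whose midpoint lies between theirs, the sialyltransferase gene St8sia2. St8sia2 had 8.97 ± 1.14 CPM in Mll3 KO and 9.88 ± 2.15 CPM in wild type lungs (SD, n = 3 each), overlapping, with a log2 fold change of −0.14 (edgeR adjusted p = 0.84). Of 25 tested neighbours, up to 3 on each side of each gene, 0 passed in edgeR and 5 had an unadjusted p under 0.05, against 10.7% of all genes tested. Of the 25, 5 were lower in all 3 knockout libraries than in all 3 wild type libraries, against 8.45% of all genes. Their log2 fold changes ran from −0.86 to 0.82 with a median of −0.05, and 15 were below 0. With the title number as a term 2 passed in edgeR, Vnn3 at −0.65 and Chmp4c at −0.37 (edgeR adjusted p = 0.021 and 0.039). In that fit 2.54% of all genes fell. In DESeq2 0 neighbours passed.

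Impa1 lies 295 bases from Slc10a5 on the same strand and had a log2 fold change of 0.03, and Zfand1 on the other side had 0.20 (edgeR adjusted p = 0.91 and 0.48). Zfp711, 3.36 kb from Pof1b, stood at −0.05 and Chm on the other side at −0.09. Beyond Slco3a1 lies Akap13 at −0.25 (edgeR adjusted p = 0.52), and beyond Vnn1 the predicted gene Gm40614 at −0.86 (edgeR adjusted p = 0.31). A830073O21Rik is antisense to the 5′ end of Fam174b, and counting by strand keeps their reads apart. It stood at −0.36 (edgeR adjusted p = 0.56).

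**Figure D5:**
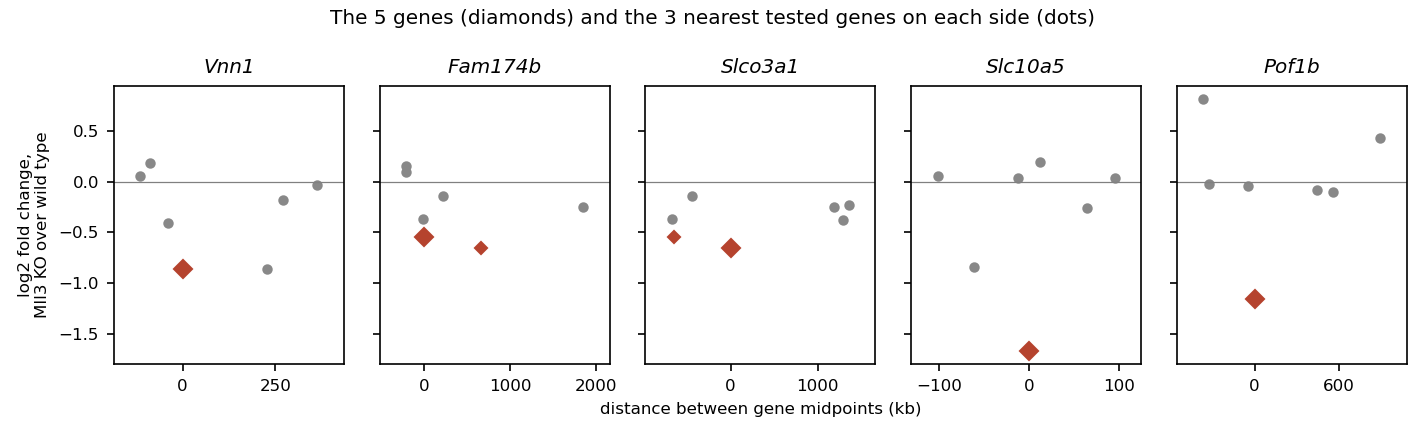
Log2 fold change (vertical axis) of each of the 5 genes at distance 0 and of up to 3 tested genes on each side, against the distance between gene midpoints in kb. Diamonds are the selected genes, and the smaller diamond in the Fam174b and Slco3a1 panels is the other of the pair. The dots, none of which passed the test, run from −0.86 to 0.82.

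The start sites of Fam174b and Pof1b were in the RefSeq promoter table (GRCm38.p6). The 250 bases before each start site are shown because these genes, which moved in the same direction by selection, differ in base composition there and share a GC box. Capitals mark GC box matches, GGGCGG or its reverse complement CCGCCC.
Fam174b, chr7:73740057-73740306, plus strand: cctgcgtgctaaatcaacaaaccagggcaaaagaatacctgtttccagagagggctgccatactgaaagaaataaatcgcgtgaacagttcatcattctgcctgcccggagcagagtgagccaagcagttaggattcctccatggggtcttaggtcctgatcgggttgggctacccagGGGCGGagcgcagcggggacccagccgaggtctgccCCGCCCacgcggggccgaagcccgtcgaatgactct
Pof1b, chrX:112698652-112698901, minus strand: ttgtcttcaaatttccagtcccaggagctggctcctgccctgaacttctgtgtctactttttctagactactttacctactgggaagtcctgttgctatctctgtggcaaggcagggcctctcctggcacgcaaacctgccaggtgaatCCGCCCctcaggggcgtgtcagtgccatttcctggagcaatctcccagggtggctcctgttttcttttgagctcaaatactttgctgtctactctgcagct
Fam174b had 2 GC box matches, which begin 72 and 36 bases before the start site, and Pof1b had 1, which begins 101 bases before it. A GC box on either strand was found in 32.9% of 27025 promoter windows of the same length. No match on either strand was found in these windows for TATAAA (13.0% of all windows), CCAAT (34.5%), GGAATG, the core read by TEAD factors (12.6%), or AGGTCA, the core of nuclear receptor motifs (13.8%). The Fam174b window held 15 CpG dinucleotides and the Pof1b window 3, against a median of 6. The antisense gene A830073O21Rik covers the whole Fam174b window.

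Among genes with a log2 fold change at least as negative as that of Fam174b, Iqca and S100a14 were nearest outside the selection boundary. Both overlapped slightly, and predicted genes and genes of low counts were left out of this search. Iqca had 3.89, 5.53 and 6.58 CPM in Mll3 KO lungs, against 6.59, 6.58 and 10.9 CPM in wild type lungs. S100a14 had 41.9, 38.3 and 52.4 CPM in Mll3 KO lungs, against 76.6, 52.2 and 66.3 CPM in wild type lungs. Of the 5 genes, Fam174b and Slco3a1 had the smallest gaps. Their lowest wild type libraries held 1.34 and 1.38 times the CPM of their highest Mll3 KO libraries.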

How the data were processed

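Polyadenylated RNA was read with a strand-specific kit as 75 base single reads, per the labels' protocols. Per the submitters' processing notes, the tools were bcl2fastq 2.19.1, GSNAP, featureCounts 1.6.3 and DESeq2 1.24.0, with the build mm10. The deposited table holds raw counts per gene, made with featureCounts in reverse-stranded mode with a mapping quality of at least 1, per the file headers. Its 92 ERCC rows held 1 read and were left out. The authors' second table holds a normalised signal, in which each library's counts were divided by its own size factor. All values (100%) gave back the counts within 0.1 read. An edgeR fit on these whole reads, chosen after seeing the data, called 58 lower and 12 higher genes, as on the counts. Since the reads were the same, this fit was no separate check.

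The 19042 genes kept by filterByExpr were fitted with edgeR 4.0.16 (quasi-likelihood test, TMM scaling, genotype as the only term, Benjamini-Hochberg adjustment over all genes, threshold 0.05). CPM are after TMM scaling, and FPKM are CPM per kilobase of exon. Log2 CPM for likeness used a prior count of 2 and genes of at least 1 CPM. Alternatives were DESeq2 1.42.0, limma on the normalised signal (pseudocount 1), other scalings, other filters, a term for the title number and each library left out. The fits were tested on simulated data.

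The 5 genes and all lists were chosen with earlier results of these data known. Named beside them were list genes past the threshold and the 2 others of lowest p in each list, the nearest tested neighbours, the 3 nearest profiles without predicted genes and pseudogenes, and the 2 genes just outside the selection. Slco1a1, Slco1a6, Slco6c1, Ppara, Hadha, Acadm, Ppcs, Ppcdc, Coasy, Pank1 to Pank4, Slco2a1, Slc10a1, Slc10a2, Slc10a7, Cdh1, Pkp1, Dsc2, Evpl, Myh14, Dsp, Perp, Ednrb, Gadl1, Chmp4c, Sftpc and the alveolar type 1 genes were named after their values were seen. Fam174c was matched through its older symbol in RefSeq.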

Additional observations from a re-analysis of the deposited data

How the results depend on the processing

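The sign of the log2 fold changes of the 5 genes is fixed by their selection on groups that do not overlap, so only their size is given here. With each library left out in turn the log2 fold changes ran from −0.98 to −0.78 for Vnn1, −0.58 to −0.51 for Fam174b, −0.74 to −0.59 for Slco3a1, −1.79 to −1.59 for Slc10a5 and −1.32 to −0.97 for Pof1b. The log2 ratio of Fam174b per alveolar type 1 marker was −0.06 and turned to 0.0043 without Mll3 KO 3, with a range of −0.12 to 0.0043 over the 6 libraries left out. The counts of genes passing depended on the fit. Lower and higher genes numbered 289 and 60 in DESeq2, 340 and 103 with no filter and 483 and 142 with the title number as a term. With each library left out they ran from 0 to 36 and from 0 to 5, with 0 of each without wild type 2 (1954 genes at an unadjusted p under 0.05 in edgeR) and without wild type 3 (1629). Of the pathway lists, 3 genes fell in DESeq2, 0 with library size only, 4 with the title number and 0 with any library left out. The number that rose was 2 with no filter and 0 to 1 with a library left out. Of the neighbours 2 passed with the title number and 0 with any library left out. The cause was not tested. Replicate numbers follow sample order only and pair no samples, and the title number, which splits the samples into 2 sets, entered as the term named above. Depth limits Slc10a5 most, with 10 to 14 reads in each Mll3 KO library.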
